A study of Rattus norvegicus with 6 samples.

Results

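The antioxidant genes described here are 7 genes picked by Ensembl ID from the 32883 gene rows of each count table: Hmox1, Nqo1, Gclc, Gclm, Cat, Sod1 and Sod2. The rule that picks them uses names and not measured values, but it was written with earlier results of these data known. All 7 passed the filter on low counts and were among the 15919 genes tested. The genes were measured by bulk RNA sequencing in cultured rat spinal cord ependymal stem cells (epNSPCs), cells of the central canal lining with neural stem and progenitor properties. The 3 control libraries came from cells in neurobasal medium, and the 3 glutamate libraries from cells in the same medium with 500 uM glutamate added, all at day 2. The labels give no strain, sex, age or genotype of the rats, and do not say whether libraries of a group came from separate cultures or animals, so p-values measure the spread between these libraries, which may be technical. The study asked how these cells respond to glutamate at a level that is toxic to neurons.

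NRF2, encoded by Nfe2l2, is a transcription factor that is held at a low level by KEAP1 in unstressed cells and accumulates when oxidants or electrophiles modify KEAP1. It then binds antioxidant response elements and raises the transcription of genes for quinone reduction, heme breakdown and glutathione synthesis, of which Nqo1, Hmox1, Gclc and Gclm are standard readouts. Cat, Sod1 and Sod2 encode enzymes that remove hydrogen peroxide and superoxide directly, and their expression is less closely tied to NRF2. In the nervous system, high extracellular glutamate can load cells with calcium through glutamate receptors, and can also hinder the uptake of cystine, which supplies the cysteine for glutathione.

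The libraries held between 166567977 and 181352365 counts, and levels are given as CPM, the count of a gene per 1000000 counts of its library after TMM scaling. In every library 1 CPM stood for 166.6 reads or more. Summed over the 7 genes, 0.0335% to 0.0349% of a library's counts were theirs, and the control and glutamate libraries overlapped in this share. Control replicate 1 stood apart from the other control libraries, with a chi-square statistic per gene of 88.3 and 160.3 against them, where control replicates 2 and 3 gave 32.0 and sampling noise alone gives about 1. It was the outermost of the 3 control values in all 7 antioxidant genes, and in 82.4% of all genes tested. Outermost here means highest or lowest, which each of 3 like libraries would be in most genes. Results are therefore also given without it where it moves them. The labelled cell type could not be checked against its markers, because the files give Ensembl IDs without gene names.

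Of the 7 antioxidant genes, 3 rose with glutamate (Nqo1, Gclm and Cat), 1 fell (Gclc) and 3 were not called (Hmox1, Sod1 and Sod2). Calls were made at an adjusted p below 0.05 in edgeR's quasi-likelihood test, with p-values adjusted over all genes tested. Across those genes 27.7% were called, with 14.1% rising and 13.7% falling. Among genes at 10 CPM or more on average, a class that holds all of the 7 except Nqo1, 31.8% were called. In bulk RNA, a change in the number of cells that express a gene and a change in its RNA per cell cannot be told apart. The changes were small. The median size of the log2 fold change was 0.17 over the 7 genes, 0.21 over all genes tested and 0.16 over those at 10 CPM or more. A change that was called and reached 1.5-fold was seen in 1 of the 7, Nqo1, and in 9.30% of all genes tested. The signed median was -0.05 over the 7 genes and -0.01 over all genes tested. Standard NRF2 targets did not move as a block: Nqo1 and Gclm rose, Gclc fell and Hmox1 was not called.

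**Figure D1:**
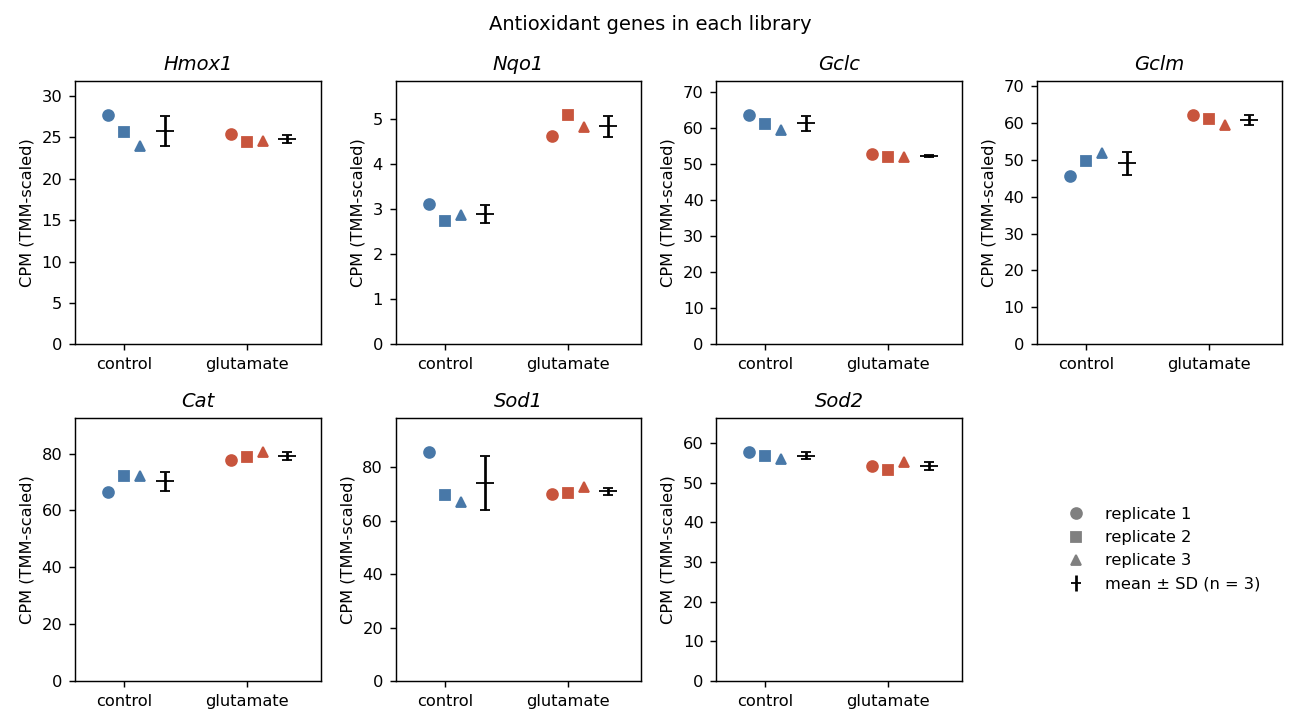
TMM-scaled CPM (vertical axes, each starting at 0) of the 7 antioxidant genes in the 3 control (blue) and 3 glutamate (red) libraries. Each point is 1 library, its shape gives the replicate number, and the black bar is the mean ± SD. Nqo1, Gclm and Cat lie higher in every glutamate library than in any control library. Gclc lies lower, as does Sod2 by a narrow gap and without a call. Control replicate 1 stands above the other 5 libraries in Sod1.

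Nqo1 (ENSRNOG00000012772) encodes NAD(P)H quinone dehydrogenase, which reduces quinones in a single step and so bypasses the radical intermediate. Its CPM was 3.11, 2.72 and 2.85 in control replicates 1 to 3, and 4.62, 5.07 and 4.81 in glutamate replicates 1 to 3. Every glutamate library was above every control library, and the lowest glutamate value exceeded the highest control value by 48.4%. The mean was 2.90 ± 0.20 CPM in control and 4.83 ± 0.23 CPM with glutamate (SD, n = 3 each). The fitted rise was 1.67-fold, a log2 fold change of 0.74 (SE 0.10, 95% interval 0.51 to 0.97, edgeR adjusted p = 0.000851). This was larger in size than the change of 89.8% of all genes tested. It was the least abundant of the 7 genes in raw reads, with 485 to 560 reads in control libraries and 801 to 879 with glutamate. The rise kept its call when any single library was left out, at log2 fold changes from 0.70 to 0.79. Against a null of up to 1.5-fold it was not called (edgeR glmTreat adjusted p = 0.417). That test called 3.35% of all genes.

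Hmox1 (ENSRNOG00000014117) encodes heme oxygenase 1, the inducible enzyme that cleaves heme to biliverdin, iron and carbon monoxide. Control replicates 1 to 3 had 27.7, 25.6 and 24.0 CPM, and glutamate replicates 1 to 3 had 25.4, 24.5 and 24.6 CPM. The groups overlapped, and all glutamate values fell within the range of the control values. The means were 25.8 ± 1.8 CPM in control and 24.8 ± 0.5 CPM with glutamate (SD, n = 3 each). On the log2 scale the change was -0.05 with an SE of 0.07 (edgeR adjusted p = 0.596). Its 95% interval ran from -0.21 to 0.10, or from 0.864 to 1.07 as a fold change, so that a rise of the size seen for Nqo1 lay outside it. Leaving out 1 library at a time gave log2 fold changes from -0.11 without control replicate 3 (edgeR adjusted p = 0.257) to -0.00072 without control replicate 1 (edgeR adjusted p = 0.994).

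Gclc and Gclm encode the catalytic and the modifier subunit of glutamate-cysteine ligase, the rate-limiting enzyme of glutathione synthesis, which joins glutamate to cysteine. The modifier subunit lowers the enzyme's need for glutamate and relieves its inhibition by glutathione. The transcripts of these subunits moved in opposite directions. Gclm (ENSRNOG00000013409) had 45.7, 49.8 and 51.8 CPM in control replicates 1 to 3 and 62.1, 61.2 and 59.5 CPM in glutamate replicates 1 to 3. Every glutamate value was above every control value, with a gap of 14.9% between the nearest values. Mean expression was 49.1 ± 3.1 CPM in control and 60.9 ± 1.3 CPM with glutamate (SD, n = 3 each). This was a 1.24-fold rise, or 0.31 on the log2 scale (SE 0.06, 95% interval 0.17 to 0.45, edgeR adjusted p = 0.0066). Control replicate 1 was the lowest library. Without it the log2 fold change was 0.26 (edgeR adjusted p = 0.00144), and the rise was also called without each of the other libraries.

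Gclc (ENSRNOG00000006302) had 63.5, 61.0 and 59.4 CPM in control replicates 1 to 3 and 52.6, 51.9 and 52.0 CPM in glutamate replicates 1 to 3. Here every glutamate value lay below every control value, and the highest glutamate value was 11.4% under the lowest control value. Mean expression was 61.3 ± 2.0 CPM in control and 52.2 ± 0.4 CPM with glutamate (SD, n = 3 each). The fitted log2 change was -0.23 (SE 0.05, 95% interval -0.35 to -0.11, edgeR adjusted p = 0.0126). As a fold this was 0.851 of the control level. The 3 glutamate libraries differed by less than reads alone would give: their coefficient of variation was 0.739%, against 1.05% from counting. The size of the fall was steady when 1 library was left out, with log2 fold changes from -0.26 to -0.21. Its call was lost without control replicate 2 (edgeR adjusted p = 0.0551) and without glutamate replicate 1, 2 or 3 in turn (edgeR adjusted p = 0.0582, 0.0733 and 0.0561). The share of all genes called fell as well in these fits, to at most 16.1%.

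Since the CPM of a gene depends on the scaling of its library, the reads of the subunits were also set against each other within each library, where that scaling cancels. This ratio was chosen after the values had been seen and is a description. There were 0.720, 0.816 and 0.871 Gclm reads for each Gclc read in control replicates 1 to 3, and 1.18, 1.18 and 1.14 in glutamate replicates 1 to 3. The mean ratio was 0.803 ± 0.077 in control and 1.17 ± 0.02 with glutamate (SD, n = 3 each), so that it was 1.45 times as high with glutamate. All 3 glutamate ratios were above all 3 control ratios. That separation follows from the CPM values, since Gclm lay higher and Gclc lower in every glutamate library, and adds nothing to them. Without control replicate 1, the library with the lowest ratio, the mean ratio was 1.38 times as high with glutamate. The ratio is of reads, uncorrected for transcript length, and does not say which subunit had more transcripts.

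**Figure D2:**
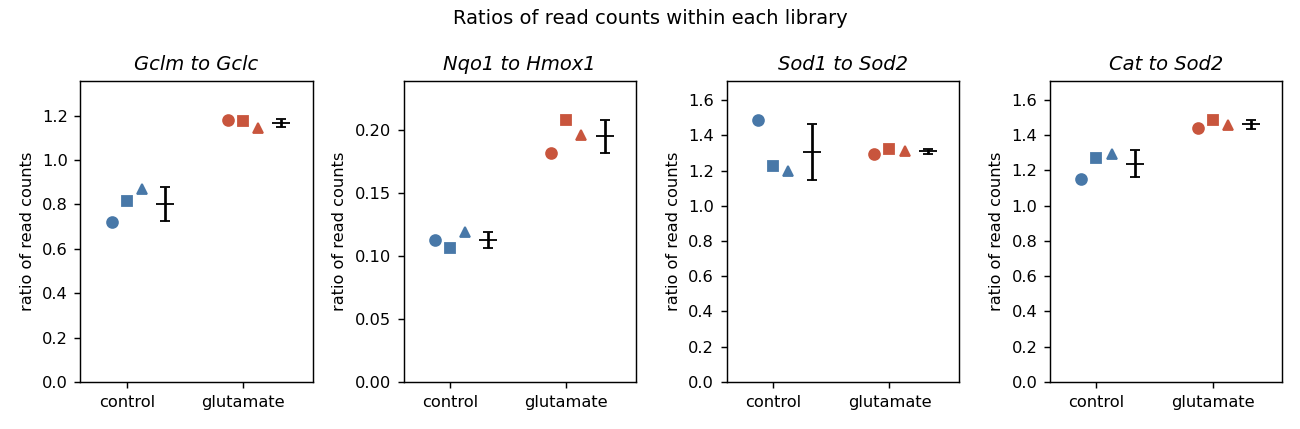
Ratio of the read counts of 2 antioxidant genes within each library (vertical axes, from 0), for 3 control (blue) and 3 glutamate (red) libraries, with the replicate number given by the shape (circle 1, square 2, triangle 3) and mean ± SD in black. The ratios of Gclm to Gclc, of Nqo1 to Hmox1 and of Cat to Sod2 are higher in every glutamate library, while those of Sod1 to Sod2 overlap.

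The RefSeq promoter table (rat assembly GRCr8) held 6 of the 7 genes, all but Hmox1. These windows were searched for TGACNNNGC, the core of the antioxidant response element, on both strands and with no other motif. Of all 33469 promoter windows, 10.1% held it within the 250 bases before the start. It was found in 2 of the 6 genes, Gclm and Sod2. The promoters of Nqo1 and Gclm are shown because these genes rose the most. Each run gives the 250 bases before the gene's start, 5′ to 3′ on the gene's strand, with the match in capitals: Gclm lies at chr2:213031885-213032134 on the plus strand and Nqo1 at chr19:52220268-52220517 on the minus strand of GRCr8.
Gclm: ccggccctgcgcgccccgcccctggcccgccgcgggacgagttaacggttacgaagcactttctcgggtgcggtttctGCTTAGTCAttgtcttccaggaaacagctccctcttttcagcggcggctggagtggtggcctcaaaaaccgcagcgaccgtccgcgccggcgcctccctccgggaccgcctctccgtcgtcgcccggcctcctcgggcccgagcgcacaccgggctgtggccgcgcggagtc
Nqo1: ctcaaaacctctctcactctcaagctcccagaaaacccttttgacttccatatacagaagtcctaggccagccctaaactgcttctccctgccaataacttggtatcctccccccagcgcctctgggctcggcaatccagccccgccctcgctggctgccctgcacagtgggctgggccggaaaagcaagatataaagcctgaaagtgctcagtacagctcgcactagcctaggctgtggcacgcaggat
In Gclm the match begins at position -172, counted from the gene's start, and reads TGACTAAGC on the opposite strand. In Sod2, which was not called, the match begins at position -35 and reads TGACCCTGC on the opposite strand. Nqo1, Gclc, Cat and Sod1 hold no match in these windows. For Gclc and Sod1 the window is set on a start that lies inside the annotated gene, so it is not the stretch before the gene's outermost start. The match was thus found in a gene that rose and in a gene that was not called, and elements outside these windows were not searched.

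Cat (ENSRNOG00000008364) encodes catalase, the peroxisomal enzyme that splits hydrogen peroxide into water and oxygen. Control replicates 1 to 3 had 66.4, 72.0 and 72.2 CPM, and glutamate replicates 1 to 3 had 77.7, 78.8 and 80.5 CPM. Every glutamate value was above every control value, by at least 7.73%. Mean expression was 70.2 ± 3.3 CPM in control and 79.0 ± 1.4 CPM with glutamate (SD, n = 3 each). This was a 1.13-fold rise, or 0.17 on the log2 scale (SE 0.06, 95% interval 0.04 to 0.30, edgeR adjusted p = 0.0491). The call sat at the threshold. It was lost under scaling by total counts (edgeR adjusted p = 0.0537), in DESeq2 (adjusted p = 0.0609), without the low-count filter (edgeR adjusted p = 0.0772), with the replicate number as a block (edgeR adjusted p = 0.0596), in the test against 1.5-fold (edgeR glmTreat adjusted p = 1) and without control replicate 2 (0.093) or glutamate replicate 1 (0.105), 2 (0.131) or 3 (0.162). The direction was the same in all of these, and without control replicate 1 the log2 fold change was 0.13 (edgeR adjusted p = 0.0444).

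The superoxide dismutases convert superoxide to hydrogen peroxide and oxygen, Sod1 with copper and zinc mainly in the cytosol and Sod2 with manganese in mitochondria. Sod1 (ENSRNOG00000002115) had 85.7, 69.6 and 66.9 CPM in control replicates 1 to 3 and 70.1, 70.3 and 72.5 CPM in glutamate replicates 1 to 3. Control replicate 1 was the highest library and the other 5 lay close together. Among those, every glutamate value was above control replicates 2 and 3, by a narrow gap. The means were 74.1 ± 10.2 CPM in control and 71.0 ± 1.4 CPM with glutamate (SD, n = 3 each), with a log2 fold change of -0.06 (SE 0.09, 95% interval -0.26 to 0.14, edgeR adjusted p = 0.632). The sign rested on control replicate 1: without it the log2 fold change was 0.055 (edgeR adjusted p = 0.422).

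Sod2 (ENSRNOG00000019048) had 57.7, 56.7 and 55.9 CPM in control replicates 1 to 3 and 54.1, 53.1 and 55.2 CPM in glutamate replicates 1 to 3. The highest glutamate value was 1.20% below the lowest control value, so the groups did not overlap although the difference was not called. The means were 56.8 ± 0.9 and 54.1 ± 1.1 CPM (SD, n = 3 each), with a log2 fold change of -0.07 (SE 0.05, 95% interval -0.19 to 0.05, edgeR adjusted p = 0.36). In fold terms the interval ran from 0.879 to 1.04. With Sod2 counted, the groups did not overlap in 5 of the 7 antioxidant genes, 3 higher and 2 lower with glutamate, where 46.8% of all genes tested did not overlap (22.8% higher and 24.0% lower). Of the 9078 genes at 10 CPM or more, the class of all of the 7 except Nqo1, 4811 did not overlap (2031 higher and 2780 lower).

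Ratios within a library were also formed for pairs of related enzymes, again chosen after the values had been seen. There were 0.113 ± 0.006 Nqo1 reads for each Hmox1 read in control and 0.195 ± 0.013 with glutamate (SD, n = 3 each), 1.73 times as many, with no overlap between the groups. The ratio of Cat to Sod2 reads went from 1.24 ± 0.08 to 1.46 ± 0.02 (SD, n = 3 each), 1.18 times as high, also with no overlap. The lack of overlap for Cat to Sod2 follows from the CPM values, since Cat lay higher and Sod2 lower in every glutamate library. That for Nqo1 to Hmox1 follows from them too. The gap between the groups in Nqo1, 48.4%, was wider than the range of Hmox1 over all libraries, 24.0 to 27.7 CPM. For Sod1 to Sod2 the ratio was 1.30 ± 0.16 in control and 1.31 ± 0.01 with glutamate (SD, n = 3 each), and the groups overlapped. This overlap rested on control replicate 1, at 1.49, where control replicates 2 and 3 had 1.23 and 1.20. Glutamate replicates 1 to 3 had 1.30, 1.32 and 1.31. Without control replicate 1 the mean Sod1 to Sod2 ratio was 1.08 times as high with glutamate, against 1.01 times with it. All of these ratios are descriptions, and no test was run on them.

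**Figure D3:**
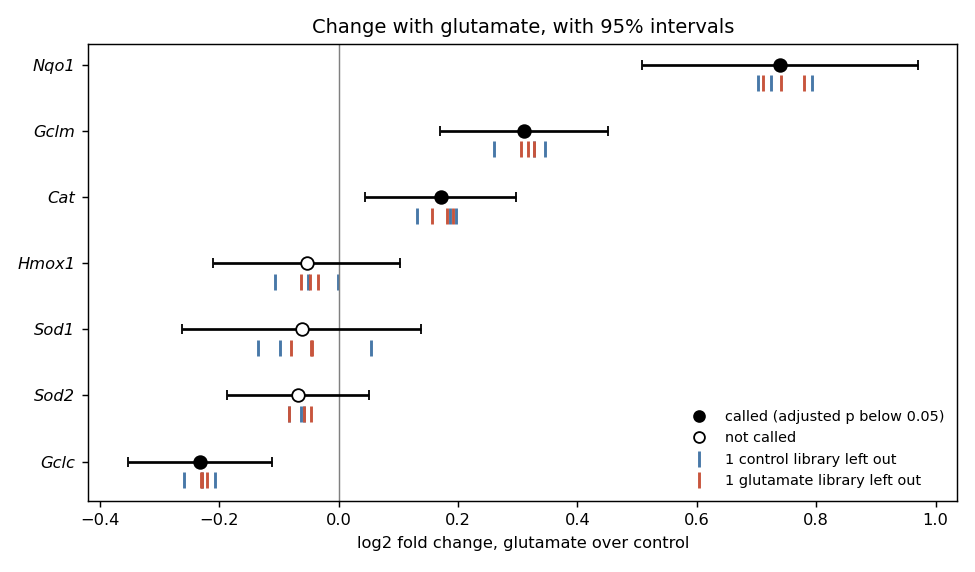
Log2 fold change of each antioxidant gene, glutamate over control (horizontal axis), with its 95% interval from the edgeR fit (circles, filled where called), and the value with 1 control (blue) or 1 glutamate (red) library left out (ticks under each circle). The intervals of Nqo1, Gclm and Cat lie above 0 and that of Gclc below it, and the blue tick of Sod1 without control replicate 1 lies on the other side of 0.

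Among all 3 libraries of each group, 6 of the 7 antioxidant genes, all but Sod2, had a smaller coefficient of variation with glutamate than in control, with medians of 1.96% and 6.31%. The difference was smaller without control replicate 1. Without that library the control median was 2.75%, and 4 of the 7 (Hmox1, Gclc, Gclm and Sod1) varied less with glutamate. Over all genes tested the control and glutamate medians were 9.55% and 5.37%, and the spread was smaller with glutamate in 70.4% of the 15913 genes for which both could be computed. Without control replicate 1 that share was 48.6%. The values without it set 2 control libraries against 3 with glutamate, and a spread from fewer libraries tends to come out lower. How far the difference rested on control replicate 1 was therefore not tested. Counting error alone gives about 1% for Gclc, Gclm, Cat, Sod1 and Sod2 (0.857% to 1.07%), 1.48% to 1.53% for Hmox1 and 3.46% to 4.42% for Nqo1. With all 3 control libraries each of the 7 genes spread by more than this. Between control replicates 2 and 3 alone, 4 of the 7 did, while Nqo1 (3.39%), Cat (0.129%) and Sod2 (0.984%) lay below their counting error. The estimated biological coefficient of variation of the 7 genes had a median of 0.069, against 0.098 over all genes tested. Over genes at 10 CPM or more, the class that holds all of the 7 except Nqo1, the median was 0.076.

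Patterns over the 6 libraries were compared by the root mean square difference between log2 CPM values centred on each gene's mean, where a small value means a like pattern. Among the 7 genes, Hmox1 and Sod2 were the closest pair, at 0.052. Neither was called, and genes that vary little lie close by this measure whatever their patterns. The closest pair among the called genes was Gclm and Cat, at 0.080, while Gclm and Gclc stood at 0.284 and Nqo1 and Gclc, the farthest pair, at 0.489. Of 10173 other genes averaging 5 CPM or more, ENSRNOG00000010748 (0.053) and ENSRNOG00000015857 (0.061) lay closest to Nqo1, with rises of 1.64-fold and 1.70-fold. The closest to Gclc were ENSRNOG00000024125 (0.010) and ENSRNOG00000056174 (0.012), at 0.861 and 0.853 of their control levels. No table used here gives names for these IDs.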

How the data were processed

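For each of 6 libraries a table of raw counts by Ensembl gene ID was deposited, per the file headers. The submitters' processing notes name Trim Galore 0.6.5, STAR 2.7.8a, SAMtools, featureCounts 2.0.1 and the build rn6. Which annotation, strand setting and rule for shared reads were used is not given in the sources used here, so reads from overlapping genes or near-identical copies are uncertain. Gene names of the 7 members were given with their IDs. RefSeq's table holds an Ensembl ID in 0 of 47357 rows, so the other pathway lists and cell type markers could not be evaluated. Members and lists were chosen with earlier results of these data known.

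Counts were tested in R 4.3.3 with edgeR 4.0.16: filterByExpr (minimum count 10, minimum total 15), TMM scaling, robust quasi-likelihood fits without covariates and Benjamini-Hochberg adjustment over all genes tested. Standard errors are the log2 fold change divided by the square root of F, and 95% intervals use the fit's t distribution. Patterns used a prior count of 2. The text names all 7 members, and the 2 genes of at least 5 CPM nearest in pattern to the member with the largest rise and to that with the largest fall. The fit was tried on counts simulated from its own model, with no library that stood apart. That trial does not bear on how a divergent library affects the results. Within groups the chi-square statistic per gene was at least 19.0, so each library counted as a sample. Alternatives were RLE or total-count scaling, DESeq2 1.42.0, 2 other filters, the replicate number as a block, a test against 1.5-fold and leaving out each library. Leaving out libraries for the ratios and for the spread was added after the data were seen.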

Additional observations from a re-analysis of the deposited data

How the results depend on the processing

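The 7 antioxidant genes were refitted under 13 alternatives. Of the 91 combinations of gene and alternative, 74 kept direction and call or lack of call, 16 lost the call and 1, Sod1, changed sign. The 74 include Hmox1, Sod1 and Sod2, which had no call to lose. Of the 13 alternatives, Nqo1 and Gclm kept their calls in 12 each, Gclc in 8 and Cat in 4. Leaving out 1 library at a time gave Sod1 log2 fold changes from -0.13 (without control replicate 3) to 0.055 (without control replicate 1). Scaling by RLE factors and the filter of 1 CPM in 3 libraries left all 4 calls. Total counts, DESeq2 and no filter beyond 1 count left 3, each losing Cat. Leaving out 1 library left 2 to 4 of them, and gave 2420 to 5584 called genes in all against 4413, with fewer samples in each fit; why the libraries differ in this was not tested. The test against 1.5-fold (edgeR glmTreat) called 0 of the 7, with 1 (Nqo1) below 0.05 before adjustment, and 534 of all genes, by construction a stricter question. The replicate number as a block called 4553 genes in all and 3 of the 7, losing Cat (edgeR adjusted p = 0.0596). The labels do not say that the numbers pair the libraries, and same-numbered deviations correlated at 0.101, -0.024 and 0.135. Counting alone gives Nqo1 a coefficient of variation of 4.42% in control and 3.46% with glutamate, where 6.85% and 4.75% were observed. A gene without a call is not shown to be unchanged.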
